A study of Mus musculus with 18 samples.

Results

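The genes described here are the endoplasmic reticulum (ER) folding and unfolded protein response genes of 4T1 cells, a mouse breast cancer line that forms metastases when injected into mice. They are 41 of the 34591 gene symbols counted in each library, taken by name as a list of ER chaperones, disulfide isomerases, translocon subunits, degradation factors and stress sensors, and all 41 were found. Poly(A) RNA was sequenced in 18 libraries, 6 groups of 3. The 2 parental groups were untransduced 4T1 cells 24 h after a change to fresh RPMI, either with no addition (untreated) or with 2 ng/mL recombinant human TGFb1, a growth factor that makes epithelial cells more mesenchymal and more secretory of matrix. The other 4 groups were 2 lentiviral, puromycin-selected stable lines of 4T1, one with an empty vector (EV) and one with a vector expressing Wisp1, a CCN family protein that cells secrete into their matrix. Each stable line was grown to subconfluence on tissue culture plastic or on plastic coated with collagen type I, and all groups were grown in RPMI with serum. Each vector was represented by 1 stable line, so the effect of Wisp1 and any other difference between the EV and Wisp1 lines cannot be told apart.

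Proteins that enter the secretory pathway fold in the ER with the help of chaperones of the heat shock families, lectin chaperones that bind glycans, and enzymes that form and rearrange disulfide bonds. When unfolded proteins build up there, the sensors IRE1 (gene Ern1), ATF6 and PERK start the unfolded protein response: IRE1 splices the mRNA of the factor Xbp1, ATF6 is cut to release a transcription factor, and PERK slows translation. Xbp1 and ATF6 then induce chaperone and degradation genes, many through a promoter sequence called the ER stress element. Counts per gene symbol do not separate spliced from unspliced Xbp1 mRNA and do not report the cutting of ATF6 protein.

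To show that sequence, 250 bases before each RefSeq transcript start (build GRCm38.p6) were searched on both strands for the ER stress element, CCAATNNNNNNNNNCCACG, for the shorter form ERSE-II, ATTGGNCCACG, and for the unfolded protein response element, TGACGTGG. Promoters were found for 32 of the 41 members, and 10 of the 32 (31.25%) held the ER stress element, against 35 of 27025 genes (0.1295%) with a promoter in the table. The members were listed by name as genes of this response, so this contrast describes the list and is no test. The 10 were Hspa5, Hsp90b1, Dnajc3, Creld2, Calr, Canx, Pdia6, Ero1lb (Ero1b in RefSeq), Syvn1 and Derl3. Below are the matches of the 9 of these that were expressed, since the results on the Wisp1 line are set against them, and of Herpud1, which had ERSE-II (10 promoters of 32851 held it). Capitals mark the match, read 5′ to 3′ on the strand of the gene, so that a match on the other strand begins with CGTGG.
Hspa5: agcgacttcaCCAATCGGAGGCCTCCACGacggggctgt
Hsp90b1: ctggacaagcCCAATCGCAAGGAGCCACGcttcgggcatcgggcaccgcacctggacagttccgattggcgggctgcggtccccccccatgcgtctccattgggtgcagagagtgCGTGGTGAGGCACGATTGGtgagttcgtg
Dnajc3: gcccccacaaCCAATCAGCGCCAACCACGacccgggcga
Creld2: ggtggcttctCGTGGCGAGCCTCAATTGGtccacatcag
Calr: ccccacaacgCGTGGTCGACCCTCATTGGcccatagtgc
Canx: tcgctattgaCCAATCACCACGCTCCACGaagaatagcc
Pdia6: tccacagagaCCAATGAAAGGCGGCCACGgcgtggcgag
Ero1lb: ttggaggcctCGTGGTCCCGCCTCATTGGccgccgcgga
Syvn1: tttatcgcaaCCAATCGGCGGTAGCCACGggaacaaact
Herpud1: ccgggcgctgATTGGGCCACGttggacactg
In GRCm38.p6 these stretches lie at chr2:34772015-34772053 (plus strand, Hspa5), chr10:86705523-86705666 (minus, Hsp90b1), chr14:118937817-118937855 (plus, Dnajc3), chr15:88819510-88819548 (plus, Creld2) and chr8:84847065-84847103 (minus, Calr). The others are chr11:50325790-50325828 (minus, Canx), chr12:17266481-17266519 (plus, Pdia6), chr13:12565672-12565710 (plus, Ero1lb), chr19:6046522-6046560 (plus, Syvn1) and chr8:94386367-94386397 (plus, Herpud1). Hsp90b1 carried the element 2 times, once on each strand. The unfolded protein response element was found for 1 member, Txndc5, and in 0.5631% of all promoters. No printed stretch held more than 1 kind of match. A match describes the letters in this window and not a site in use.

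Reads counted in genes ran from 37552858 to 94401699 per library, and the members took 0.895 to 1.30% of them. Wisp1 itself read 9.14 to 39.9 CPM (read counts scaled by TMM to a common library size) in untreated cells, 278 to 610.1 CPM with TGFb1, 14.3 to 71.4 CPM in the EV line and 892 to 1127 CPM in the Wisp1 line. Vector and endogenous Wisp1 transcripts are not separated in these counts. The cells carried epithelial markers in every library (Epcam 98.7 to 248 CPM, Krt8 722 to 1859 CPM). The leukocyte list of 7 counted genes summed to at most 12.4 CPM. In it Cd68 read 3.06 to 11.6 CPM and Csf1r 0.0918 to 3.22 CPM, with Cd3e at 0 throughout. The summed fibroblast list (7 genes) was 35.9 to 59.4 CPM in untreated cells, 56.3 to 69.9 CPM with TGFb1, 16.3 to 22.2 CPM on plastic and 25.6 to 33.9 CPM on collagen, most of it Pdgfra (14.3 to 61.2 CPM), with Col1a1 at 0.259 to 16.1 CPM and Thy1 at 0 in every library. The 5 counted endothelial genes summed to at most 0.501 CPM. A plasma cell list, included because those secretory cells are rich in the members, was carried by Sdc1 (151 to 479.7 CPM), which epithelial cells also express. Prdm1 of that list read 0 to 9.43 CPM, with Tnfrsf17 at 0 and Irf4 at most 0.0418 CPM. That list summed to 163 to 229 CPM in untreated cells, 330.4 to 482 CPM with TGFb1, 151 to 182 CPM on plastic and 209 to 230.3 CPM on collagen. The part of these markers in any result was not tested.

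Per kilobase of transcript, the most abundant members were Hspa5, Ppib, Hsp90b1 and Calr in all 6 groups. Hspa5 encodes BiP, the main ER chaperone of the heat shock 70 family, and reached 600.1 CPM per kb in untreated cells, 565 CPM per kb in EV cells on plastic and 462 CPM per kb in EV cells on collagen. Hsp90b1, its heat shock 90 counterpart GRP94, stood at 419, 375 and 312 CPM per kb in the same groups. Ppib, a proline isomerase of the ER, moved from second on plastic (411 CPM per kb in EV cells) to first on collagen (511 CPM per kb), where it passed Hspa5. Calr, which encodes the lectin chaperone calreticulin, had 281, 332 and 309 CPM per kb. At the other end, Ero1lb, an ER oxidase, was 40th of the 41 in every group (3.68 CPM per kb in untreated cells). Derl3, a degradation factor of secretory tissues, came last at 0 to 0.1247 CPM in all 18 libraries, and was the only member too low to test.

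**Figure D1:**
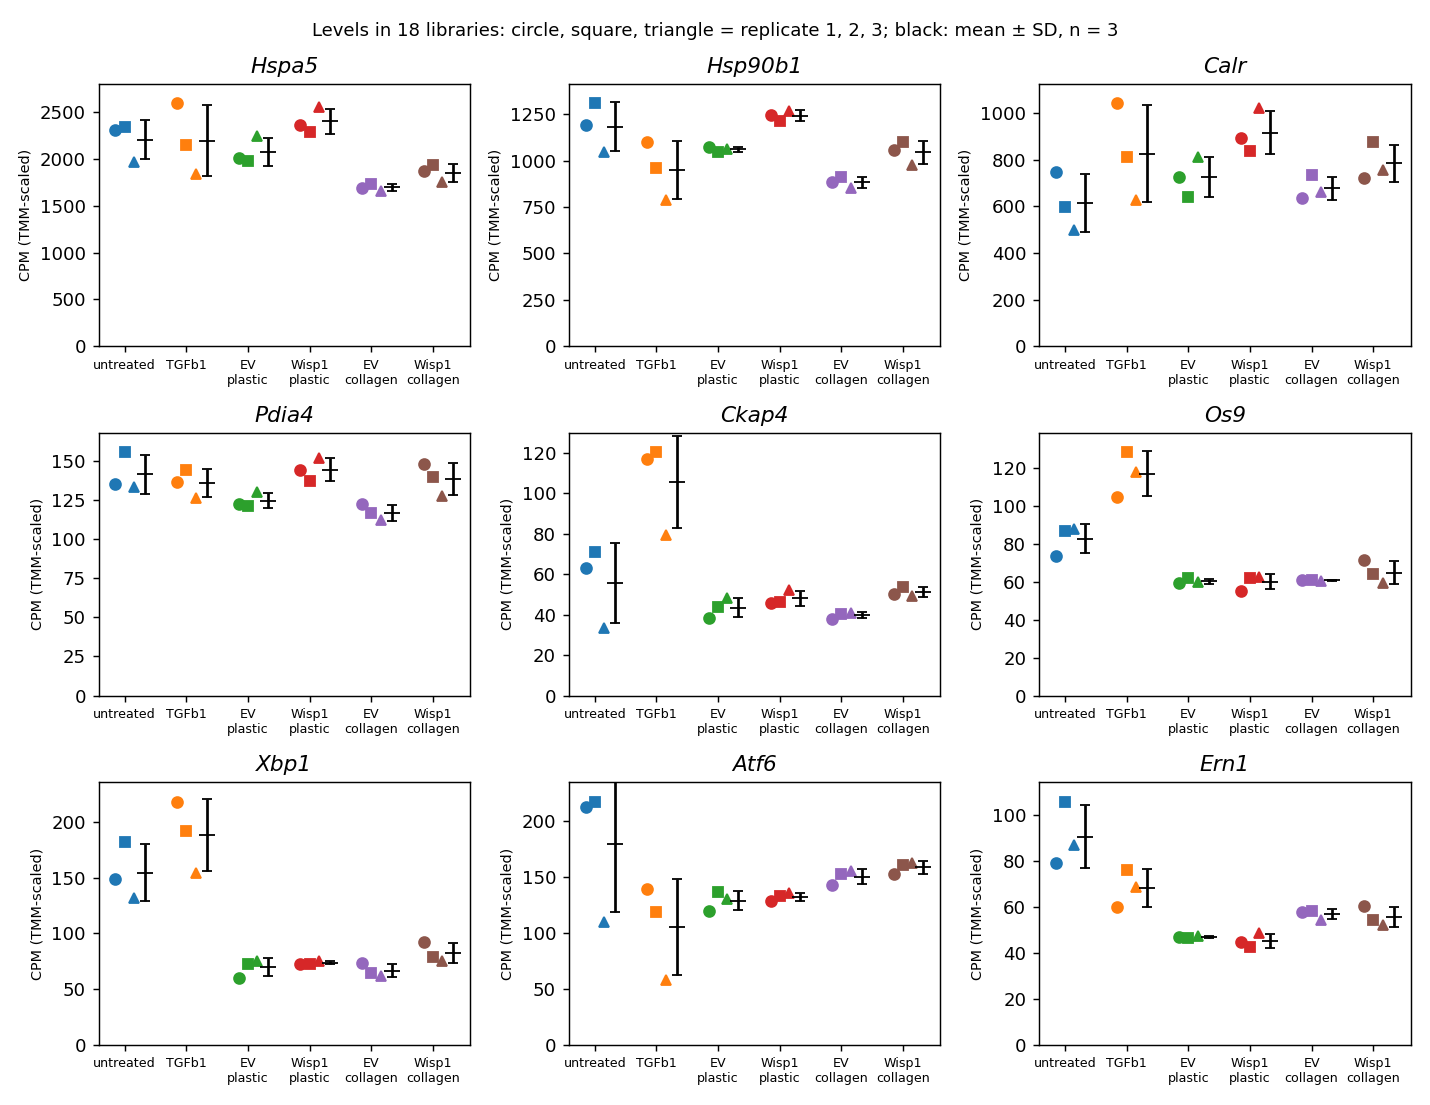
Levels of 9 members in all 18 libraries, in TMM-scaled CPM on a linear axis from 0; each symbol is a library (circle, square and triangle for replicates 1, 2 and 3) and the black marks give the mean ± SD of 3 libraries. Hspa5 spans 1662 to 1733 CPM in EV cells on collagen and 2282 to 2548 CPM in Wisp1 cells on plastic, and Atf6 in untreated cells is lowest in replicate 3 (109 CPM).

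The first comparison asked what TGFb1 did to these genes in parental cells. Without a block for the replicate number only Os9 (higher) and Ero1l (lower) passed the test. With the block, 3 of the 7 degradation factors tested, 4 isomerases, Calr, Ckap4, Sec61b and Xbp1 were higher. Lower with it were the sensors Atf6 and Ern1, the oxidases Ero1l and Ero1lb, 3 of the 12 members grouped as chaperones, Edem1, Ppib, Ssr1 and Ssr2. The median log2 change of the members without the block was -0.05, against -0.01 for all 14874 genes tested. Without regard to sign, the median was 0.23 for the members and 0.25 for all genes. By this measure the members moved no more than genes in general. Each gene was tested with edgeR's quasi-likelihood test with Benjamini-Hochberg adjustment over all genes tested, and called at an adjusted p under 0.05. Of the 40 members tested, 1 rose (Os9) and 1 fell (Ero1l), against 6.14% of all genes called higher and 4.92% called lower. Untreated and TGFb1 libraries that share a code in their names deviated together, and with that replicate number as a block in the fit 11 members rose and 11 fell, against 22.4% of all genes called higher and 22.5% called lower. On simulated counts this blocked fit made more false calls than its threshold allows, so its adjusted p-values understate the error. These are bulk cultures, in which fewer cells of a type and less RNA per cell cannot be told apart. The Sdc1-led marker list above was higher in all 3 TGFb1 libraries than in any untreated one, and its part in these results was not tested.

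Among the stress sensors and factors, Atf6 read 213, 217 and 109 CPM in untreated libraries 1, 2 and 3 and 139, 119 and 57.6 CPM in the TGFb1 libraries of the same numbers. Replicate 3 was lowest in both groups and the groups overlapped, and each TGFb1 library was below its partner. Atf6 was 1.73-fold lower with the block (log2 change -0.79 ± 0.06 (SE), edgeR adjusted p = 0.00015), while without it the adjusted p was 0.27. Ern1, the gene of the sensor IRE1, read 79.2, 106 and 87.1 CPM in untreated cells and 59.99, 76.4 and 68.98 CPM with TGFb1. The Ern1 groups did not overlap, and it was 1.31-fold lower with the block (log2 change -0.39 ± 0.06 (SE), edgeR adjusted p = 0.0015; 0.16 without). Xbp1 went the other way, from 149, 183 and 132 CPM to 218, 192 and 154 CPM, a 1.23-fold rise with the block (log2 change 0.30 ± 0.08 (SE), edgeR adjusted p = 0.028; 0.34 without). The Xbp1 groups overlapped, and its blocked adjusted p was 0.099 without pair 1 and 0.060 without pair 3.

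Of the degradation factors, which carry misfolded proteins back to the cytosol for destruction, Os9, Syvn1 and Herpud1 were higher and Edem1 lower with the block. Os9, a lectin that recognises misfolded glycoproteins, had 73.7, 86.9 and 87.6 CPM in untreated cells and 104, 128 and 118 CPM with TGFb1. All TGFb1 libraries lay above all untreated ones, and the 1.42-fold rise passed without the block (log2 change 0.51 ± 0.12 (SE), edgeR adjusted p = 0.043). Syvn1, the ubiquitin ligase HRD1 at the centre of this machinery, read 56.3, 77.2 and 67.9 CPM and 81.95, 104 and 97.97 CPM, also without overlap. It was 1.42-fold higher with the block (edgeR adjusted p = 0.00042; 0.091 without). Herpud1, a membrane partner of that ligase, read 42.1, 47.6 and 51.6 CPM and 52.7, 55.7 and 55.7 CPM (1.17-fold, edgeR adjusted p with the block = 0.019; 0.086 without pair 1 and 0.15 without pair 2). Edem1, a lectin that directs trimmed glycoproteins to degradation, read 109, 142 and 122 CPM and 105, 105 and 94.4 CPM. Its groups did not overlap either, and it was 1.21-fold lower with the block (edgeR adjusted p = 0.024; 0.13 without pair 2). Without any 1 of the libraries other than TGFb1 replicate 1, the call of Os9 in the fit with no block was lost, with adjusted p between 0.084 and 0.16.

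Of the 12 members grouped as chaperones and co-chaperones, 1 rose (Ckap4) and 3 fell with the block, and none passed without it. Ckap4, a membrane protein of ER sheets that is only counted with this group, had the largest change of any member. It went from 62.9, 70.9 and 33.3 CPM in untreated cells to 117, 120.3 and 79.5 CPM with TGFb1. The groups did not overlap, replicate 3 was lowest in both, and the rise was 1.97-fold with the block (log2 change 0.98 ± 0.10 (SE), edgeR adjusted p = 0.00059; 0.11 without). Sdf2l1, which keeps BiP complexes soluble, fell from 18.8, 26.1 and 20.5 CPM to 15.8, 19.1 and 11.7 CPM (1.40-fold lower, edgeR adjusted p with the block = 0.0081; 0.23 without). Hsp90b1 fell from 1193, 1309 and 1047 CPM to 1101, 962 and 789 CPM (1.24-fold lower, edgeR adjusted p with the block = 0.0083; 0.24 without). Both pairs of groups overlapped, and in each pair of same-numbered libraries the TGFb1 value was the lower. Creld2, a disulfide-rich ER protein, read 38.6, 48.6 and 36.6 CPM and 34.5, 37.2 and 24.2 CPM, with overlap, and was 1.29-fold lower (edgeR adjusted p with the block = 0.011; 0.32 without). Hspa5 read 2307, 2340.2 and 1963 CPM and 2594, 2145 and 1838 CPM, with replicate 1 higher and replicates 2 and 3 lower in the TGFb1 group, and a log2 change of -0.01 ± 0.06 (SE) (edgeR adjusted p with the block = 0.95).

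Calr, 1 of the 2 lectin chaperones, read 748, 595 and 499 CPM in untreated cells and 1042, 810.1 and 625 CPM with TGFb1. The groups overlapped, each TGFb1 library exceeded its partner, and Calr was 1.35-fold higher with the block (log2 change 0.43 ± 0.05 (SE), edgeR adjusted p = 0.00051; 0.28 without). Its partner Canx, calnexin, had a log2 change of -0.12 ± 0.04 (SE) (edgeR adjusted p with the block = 0.066).

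Both oxidases, which feed disulfide bonds into the ER, were lower with TGFb1 in the fit with the block. Ero1l read 109.6, 129.9 and 103 CPM in untreated cells and 80.1, 87.00 and 72.1 CPM with TGFb1. The groups were apart, and the 1.42-fold fall passed without the block (log2 change -0.50 ± 0.12 (SE), edgeR adjusted p = 0.047) and with it (edgeR adjusted p = 0.00037), although without any 1 library the unblocked adjusted p lay between 0.059 and 0.17. Ero1lb, its homologue, read 13.00, 19.8 and 14.03 CPM and 11.4, 10.5 and 7.37 CPM, also apart, and was 1.59-fold lower with the block (edgeR adjusted p = 0.012; 0.13 without, and 0.052 in the blocked fit without pair 2). Of the isomerases these oxidases supply, P4hb, Pdia3, Pdia5 and Txndc5 rose with the block. P4hb, protein disulfide isomerase itself, went from 752, 734 and 701 CPM to 924, 794 and 810.1 CPM with no overlap (1.16-fold, edgeR adjusted p with the block = 0.012; 0.18 without; 0.054 without pair 1). Pdia3, Pdia5 and Txndc5 were 1.13-, 1.31- and 1.19-fold higher, and each lost its call without pair 1 (edgeR adjusted p 0.12, 0.091 and 0.076), Pdia3 and Txndc5 also without pair 2 (0.088 and 0.091). Ppib read 332, 414 and 351 CPM and 289, 322 and 308 CPM and was 1.18-fold lower (edgeR adjusted p with the block = 0.011; 0.10 without pair 2). In GENCODE M21, 24.96% of the annotated exon bases of Ppib, over all its transcripts, overlap exons of Snx22 on the opposite strand. For Txndc5 and Ssr2, 11.91% and 12.82% of such bases overlap other genes on the opposite strand. The strand setting of the counting is not given in the sources used here.

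Of the 5 translocon members, which thread new chains into the ER, Sec61b, a small subunit of the channel, read 67.7, 77.01 and 63.6 CPM in untreated cells and 88.3, 89.4 and 72.8 CPM with TGFb1. The groups overlapped, and it rose 1.21-fold with the block (edgeR adjusted p = 0.0064). Ssr1 and Ssr2, subunits of the associated TRAP complex, were 1.20- and 1.19-fold lower (edgeR adjusted p with the block = 0.022 and 0.030; 0.13 and 0.17 without pair 2). None of the 5 passed without the block. The other 18 tested members passed in neither fit, with blocked log2 changes from -0.25 for Pdia6 to 0.15 for Sel1l. On counts simulated with a replicate effect, the fits with a block, here and for the Wisp1 line below, made more false calls than their threshold allows. The excess was largest for TGFb1, and the fits without a block kept to the threshold.

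**Figure D2:**
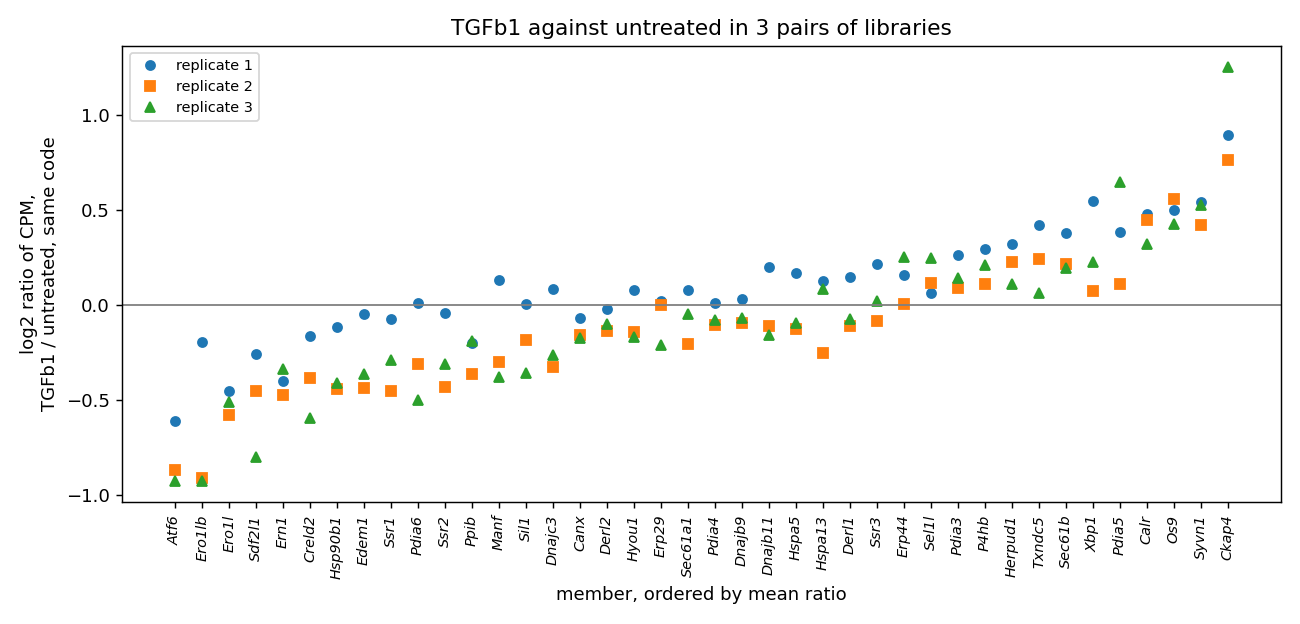
Log2 ratio of CPM, TGFb1 over untreated, for the 40 tested members in the 3 pairs of libraries that share a code (symbols mark the pair); members are ordered by their mean ratio. Ratios run from below zero in all 3 pairs for Atf6, Ero1lb and Ero1l at the left to above zero in all 3 for Calr, Os9, Syvn1 and Ckap4 at the right.

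The second comparison asked what the Wisp1 line differed in from the EV line on the same substrate. With the block described below, the chaperones Hspa5, Hsp90b1, Sdf2l1, Manf and Creld2 were called higher in the Wisp1 line on both substrates. So were the lectin chaperone Calr and the isomerases Pdia3, Pdia4 and Pdia6. These rises were 1.09- to 1.32-fold. Of the degradation factors and sensors only Edem1 and Xbp1 on collagen were called. Without a block, no member was called on either substrate by edgeR's quasi-likelihood test, as few genes were at all (0.0143% of 13953 on plastic and 0.0717% on collagen). An unadjusted p under 0.05 was reached by 13 of 40 members per substrate, against 5.89% of all genes on plastic and 5.07% on collagen. DESeq2 called 3 members on plastic and 5 on collagen, against 18 and 40 of all 13953 genes. Same-numbered EV and Wisp1 libraries deviated together, and with the replicate number within each substrate as a block 15 members were called on plastic and 14 on collagen, all higher in the Wisp1 line (37.5% and 35.0% of members, against 2.08% and 1.63% of all genes called higher). The labels do not say what these numbers mark, so the block rests on the correlation of the libraries alone. That correlation was 0.12 to 0.22 on plastic and 0.15 to 0.47 on collagen. With the gene filter of all 18 libraries, collagen pair 2 fell to 0.079, below the minimum of 0.1 that was set. On simulated counts the fits with this block made more false calls than their threshold allows. The 2 sets shared 12 members, 80.0% of the plastic and 85.7% of the collagen set, and the overlap over all genes called was not counted.

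The median log2 change of the 40 members was 0.08 on plastic and 0.10 on collagen, against 0.00 for all genes on each, and 32 and 35 of the 40 changes were positive. All 3 Wisp1 libraries lay above all 3 EV libraries for 12 members on plastic and for 15 on collagen (6.30% and 4.41% of all genes), and below them for none.

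By role, the block called 9 of the 12 members grouped as chaperones on plastic and 8 of 12 on collagen, Ckap4 among them on both. Hsp90b1 read 1073, 1045 and 1063 CPM in EV and 1246, 1211 and 1269 CPM in Wisp1 libraries 1, 2 and 3 on plastic, and 882, 913 and 853 CPM and 1057, 1098 and 976 CPM on collagen. The lines did not overlap on either substrate. Hsp90b1 was 1.17-fold higher on plastic (log2 change 0.23 ± 0.02 (SE), edgeR adjusted p with the block = 2.0e-05; 0.24 without) and 1.18-fold on collagen (0.24 ± 0.02 (SE), adjusted p = 9.0e-06; 0.086 without). In GENCODE M21, 15.67% of its annotated exon bases, over all its transcripts, overlap exons of other genes, in part on the opposite strand.

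Hspa5 read 2006, 1975 and 2243 CPM in EV and 2365, 2282 and 2548 CPM in Wisp1 cells on plastic, and 1694, 1733 and 1662 CPM and 1871, 1934 and 1749.5 CPM on collagen. The lines were apart on both substrates, and EV replicate 3 was the highest of its group on plastic, as Wisp1 replicate 3 was. The change was 1.16-fold on plastic (edgeR adjusted p with the block = 6.4e-05; 0.62 without) and 1.09-fold on collagen (edgeR adjusted p with the block = 0.0061; 0.95 without; 0.093 in the blocked fit without pair 2). Sdf2l1 read 17.4, 19.4 and 18.4 CPM and 23.3, 24.8 and 24.7 CPM on plastic, and 15.5, 15.1 and 14.4 CPM and 21.3, 20.8 and 15.97 CPM on collagen. It had the largest change of the members on plastic, 1.32-fold (log2 change 0.40 ± 0.05 (SE), edgeR adjusted p with the block = 0.00037; 0.24 without), and was 1.29-fold higher on collagen (edgeR adjusted p with the block = 0.00076; 0.23 without). On both substrates the lines were apart for Sdf2l1.

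Manf, a small secreted ER stress protein, read 115, 109 and 127 CPM in EV and 141, 125 and 153 CPM in Wisp1 cells on plastic, where EV replicate 3 lay above Wisp1 replicate 2, and 102, 97.2 and 95.9 CPM and 120.2, 118 and 104 CPM on collagen, where the lines were apart. It was 1.19- and 1.16-fold higher (edgeR adjusted p with the block = 6.5e-05 and 0.00041; 0.70 and 0.87 without). Creld2 read 35.3, 33.8 and 39.5 CPM in EV and 44.8, 42.8 and 45.5 CPM in Wisp1 cells on plastic, and 33.5, 34.6 and 32.6 CPM and 39.5, 40.2 and 35.2 CPM on collagen, apart on both. It was 1.23- and 1.14-fold higher (edgeR adjusted p with the block = 0.00046 and 0.012); on collagen the call was lost without pair 1 (0.12) and without pair 2 (0.10). Ckap4 read 37.9, 40.4 and 40.99 CPM in EV and 50.4, 53.8 and 49.2 CPM in Wisp1 cells on collagen, with the lines apart and a 1.29-fold rise (log2 change 0.36 ± 0.04 (SE), edgeR adjusted p with the block = 1.7e-05; 0.086 without). On plastic its libraries overlapped (38.4, 43.95 and 48.01 CPM and 45.7, 46.4 and 52.4 CPM), and the 1.11-fold rise (edgeR adjusted p with the block = 0.044) was lost with any 1 pair left out (0.066 to 0.35).

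Among the co-chaperones of BiP with a J domain, Dnajb11 was 1.15-fold higher on plastic (edgeR adjusted p with the block = 0.0010) and 1.09-fold on collagen (0.045), where the call was lost with any 1 pair left out (0.059 to 0.29). Dnajc3, which also restrains PERK, was 1.10-fold higher on plastic (edgeR adjusted p with the block = 0.014; 0.19 without pair 1 and 0.14 without pair 2) and 1.13-fold on collagen (0.00086). Hyou1, a nucleotide exchange factor for BiP, passed on plastic (1.19-fold, edgeR adjusted p with the block = 0.00030) and had a log2 change of 0.11 ± 0.03 (SE) on collagen (0.095). The exchange factor Sil1 and the J protein Dnajb9 passed on neither substrate, with blocked log2 changes of 0.06 and 0.09 on plastic and 0.09 and 0.19 on collagen.

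Calr read 725, 638 and 812 CPM in EV and 891, 836 and 1019 CPM in Wisp1 cells on plastic, and 635, 733 and 660.2 CPM and 722, 874 and 753 CPM on collagen. The lines were apart on plastic and overlapped on collagen, where EV replicate 2 and Wisp1 replicate 2 were each the highest of their group. With the block Calr was 1.27-fold higher on plastic (log2 change 0.34 ± 0.03 (SE), edgeR adjusted p = 1.4e-06, the lowest of the members there; 0.70 without) and 1.16-fold on collagen (0.21 ± 0.03 (SE), adjusted p = 0.00019; 0.98 without). Canx changed by 0.03 and 0.07 on the log2 scale and passed on neither substrate (edgeR adjusted p with the block = 0.48 and 0.13).

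**Figure D3:**
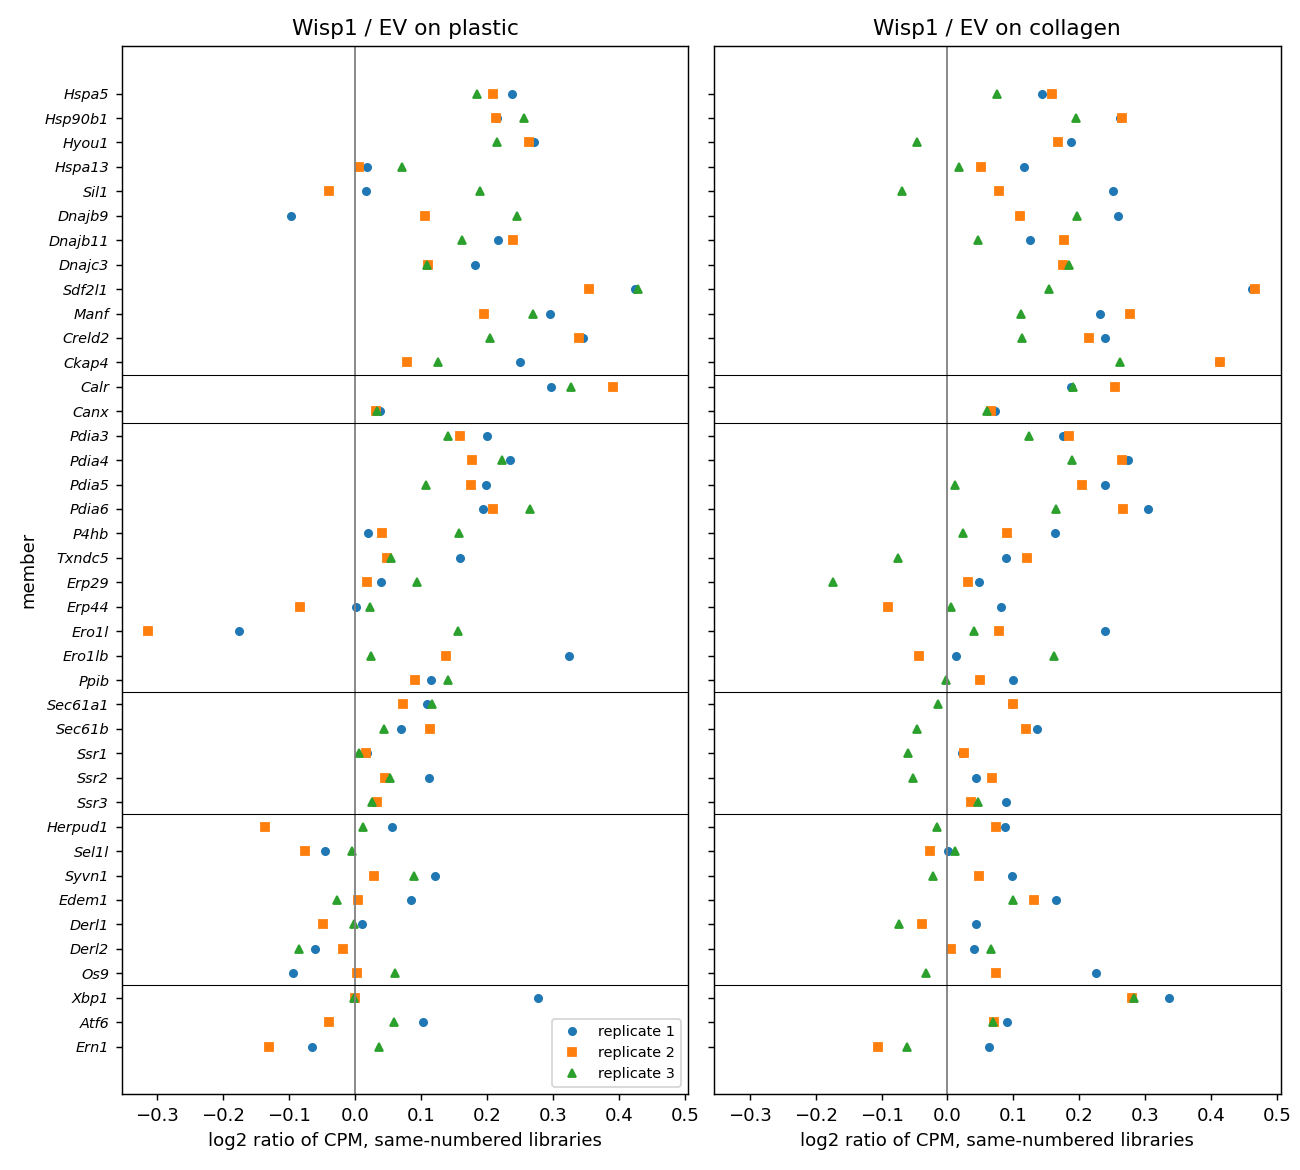
Log2 ratio of CPM, Wisp1 over EV, in the 3 pairs of same-numbered libraries on plastic (left) and on collagen (right), for the 40 tested members in role order. On plastic the 3 pairs of Calr lie between 0.30 and 0.39, and the ratios of the degradation factors and sensors run from -0.14 (Herpud1, plastic, pair 2) to 0.34 (Xbp1, collagen, pair 1).

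Of the 11 isomerases and oxidases, Pdia3, Pdia4, Pdia6 and Ppib were called on plastic and Pdia3, Pdia4 and Pdia6 on collagen. Pdia4, an isomerase found with BiP, read 122, 121 and 130.1 CPM in EV and 144, 137 and 152 CPM in Wisp1 cells on plastic, and 122, 116 and 112 CPM and 148, 139.9 and 128 CPM on collagen. The lines were apart on both, and it was 1.16- and 1.19-fold higher (edgeR adjusted p with the block = 0.00014 and 2.1e-05; 0.56 and 0.23 without). Pdia6 read 304, 299.9 and 328 CPM and 348, 346 and 395 CPM on plastic, and 279, 280.5 and 273 CPM and 344, 337 and 306 CPM on collagen, also apart. It was 1.17- and 1.19-fold higher (edgeR adjusted p with the block = 6.5e-05 and 2.1e-05; 0.50 and 0.22 without). Pdia3, the isomerase that works with the lectin chaperones, read 587, 573 and 623 CPM and 674, 640.4 and 687 CPM on plastic, and 539, 551 and 546 CPM and 608, 627 and 595 CPM on collagen. The Wisp1 libraries of Pdia3 lay above all EV libraries on both substrates. It was 1.12- and 1.12-fold higher (edgeR adjusted p with the block = 0.00083 and 0.00076; 0.54 and 0.44 without). Ppib was 1.08-fold higher on plastic (edgeR adjusted p with the block = 0.013), a call lost with any 1 pair left out (0.054 to 0.14). The oxidases Ero1l and Ero1lb passed on neither substrate.

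Outside the folding genes, fewer members passed. Sec61a1, the channel subunit of the translocon, was 1.07-fold higher on plastic (edgeR adjusted p with the block = 0.041), a call lost with any 1 pair left out (0.10 to 0.24), and none of the 5 translocon members passed on collagen. Among the 7 degradation factors tested none passed on plastic, and on collagen Edem1 did (1.10-fold, edgeR adjusted p with the block = 0.017), again lost with any 1 pair left out (0.059 to 0.15). Xbp1 read 73.4, 64.9 and 61.9 CPM in EV and 92.6, 78.7 and 75.3 CPM in Wisp1 cells on collagen, with the lines apart, and was 1.23-fold higher there (log2 change 0.30 ± 0.04 (SE), edgeR adjusted p with the block = 0.00072; 0.60 without). On plastic Xbp1 overlapped between the lines (60.2, 72.8 and 75.5 CPM and 72.97, 72.8 and 75.5 CPM; edgeR adjusted p with the block = 0.30). Atf6 and Ern1 passed on neither substrate, with blocked log2 changes of 0.04 ± 0.03 (SE) and -0.05 ± 0.04 (SE) on plastic and 0.08 ± 0.03 (SE) and -0.03 ± 0.04 (SE) on collagen.

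Averaged over both substrates with no block, a contrast chosen after the data were seen, 5 members rose in the Wisp1 line against 0.122% of all genes. They were Hsp90b1 (1.18-fold, edgeR adjusted p = 0.0086), Sdf2l1 (1.31-fold, 0.015), Pdia6 (1.18-fold, 0.022), Pdia4 (1.17-fold, 0.028) and Pdia3 (1.12-fold, 0.048). Hsp90b1 kept its call without each of the 12 libraries in turn. The others did not: the highest adjusted p was 0.067 for Sdf2l1 and 0.11 for Pdia4 without Wisp1 plastic replicate 3, 0.085 for Pdia6 without Wisp1 collagen replicate 2 and 0.19 for Pdia3 without Wisp1 plastic replicate 1. Sdf2l1 lost its call without Wisp1 plastic replicates 2 or 3, EV collagen replicates 2 or 3 or Wisp1 collagen replicate 2. Pdia4 and Pdia6 lost it without replicates 1 or 2 of EV plastic, 1 or 3 of Wisp1 plastic, 2 or 3 of EV collagen or 2 of Wisp1 collagen. Pdia3 kept it only without EV plastic replicate 3 or Wisp1 collagen replicate 1.

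Set against the promoter matches, the 9 expressed members with the ER stress element had a median log2 change, Wisp1 against EV, of 0.21 on plastic and 0.18 on collagen, and all 9 changes were positive on both. The 22 members with a promoter and no such element, Herpud1 and Txndc5 with the other motifs among them, had medians of 0.08 and 0.10. With the block, 6 of the 9 with the element were called higher on each substrate, and of the 22, 6 on plastic and 7 on collagen. All genes called higher were 2.08% (plastic) and 1.63% (collagen). The 9 members without a promoter entry had medians of 0.05 and 0.07, with 3 called higher on plastic and 1 on collagen. Sdf2l1 on plastic and Ckap4, Sdf2l1 and Xbp1 on collagen were among the largest changes and had no element in this window. Of the other genes with the element that the files name, 7 were expressed in the stable lines, with median changes of 0.02 on plastic and -0.01 on collagen, and with the block 1 of them was called, Adcy3 on collagen (1.14-fold, edgeR adjusted p = 0.012). With TGFb1 the 9 expressed members with the element had a median of -0.14. With the block 2 of them were called higher and 3 lower, against 22.4% and 22.5% of all genes. The members were listed by name as genes of this response, and the part of the element in these changes was not tested.

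**Figure D4:**
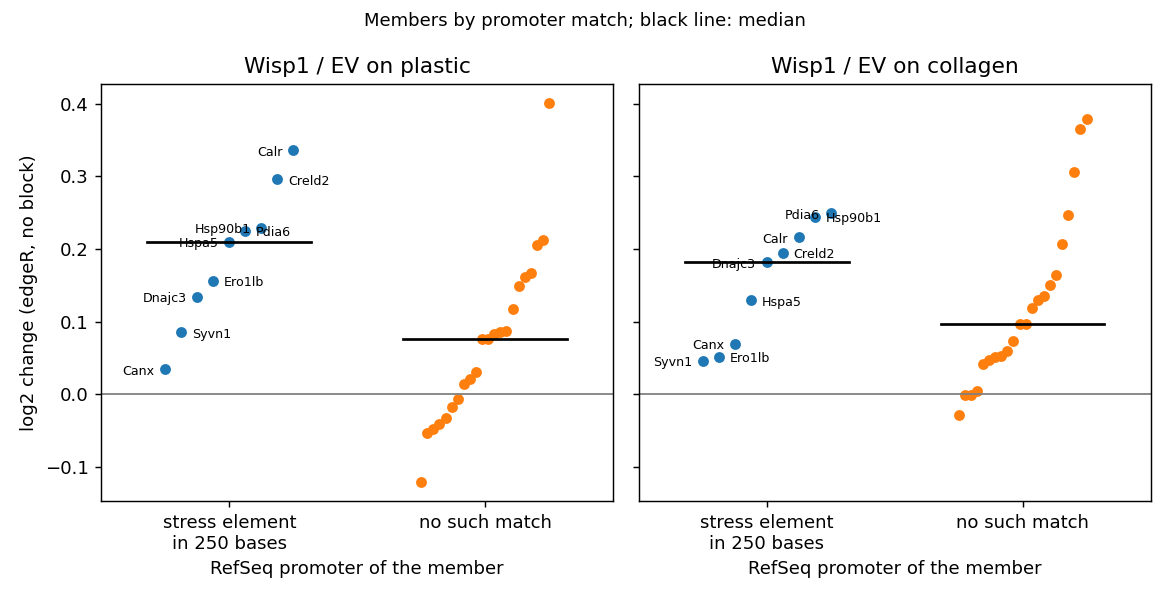
Log2 change (edgeR, no block), Wisp1 over EV, of members with and without the ER stress element in the 250 bases before a RefSeq start; points are members in order of their change and the black lines are medians. The medians with the element are 0.21 (plastic) and 0.18 (collagen), against 0.08 and 0.10 without it, and the ranges overlap. Members without a promoter entry are not drawn.

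The third comparison asked how growth on collagen type I differed from plastic within each stable line. It uses the same libraries as the comparison of the lines, and the results are given side by side. The sample titles do not say whether plastic and collagen libraries were made together. Any difference between those sets of libraries cannot be told apart from the substrate. On collagen the chaperones Hspa5, Hsp90b1, Hyou1, Sdf2l1 and Manf, the isomerase Pdia5 and the degradation factor Herpud1 were lower, and the sensors Atf6 and Ern1 and the isomerase Ppib were higher, in both lines. In the EV line 5 of 40 members rose and 14 fell, against 19.2% and 17.3% of all genes. In the Wisp1 line 4 rose and 14 fell, against 21.3% and 19.1% of all genes. The 2 sets shared 15 members (78.9% of the EV and 83.3% of the Wisp1 set). The overlap over all genes called was not counted, so this sharing is not shown to be particular to the members. The median log2 change was -0.08 in the EV line and -0.05 in the Wisp1 line, against 0.00 and 0.01 for all genes. With a spread estimated over all 18 libraries, parental cells included, each count of calls was 5 of 40 members. They were Canx, Ero1l, Erp29, Herpud1 and Ppib in EV, and Canx, Erp29, Herpud1, Hspa5 and Hyou1 in Wisp1 cells. Of all 15032 genes in that fit, 1629 were called in EV and 2071 in Wisp1 cells. The summed Sdc1-led and Pdgfra-led marker lists above were higher on collagen in both lines, and their part was not tested.

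**Figure D5:**
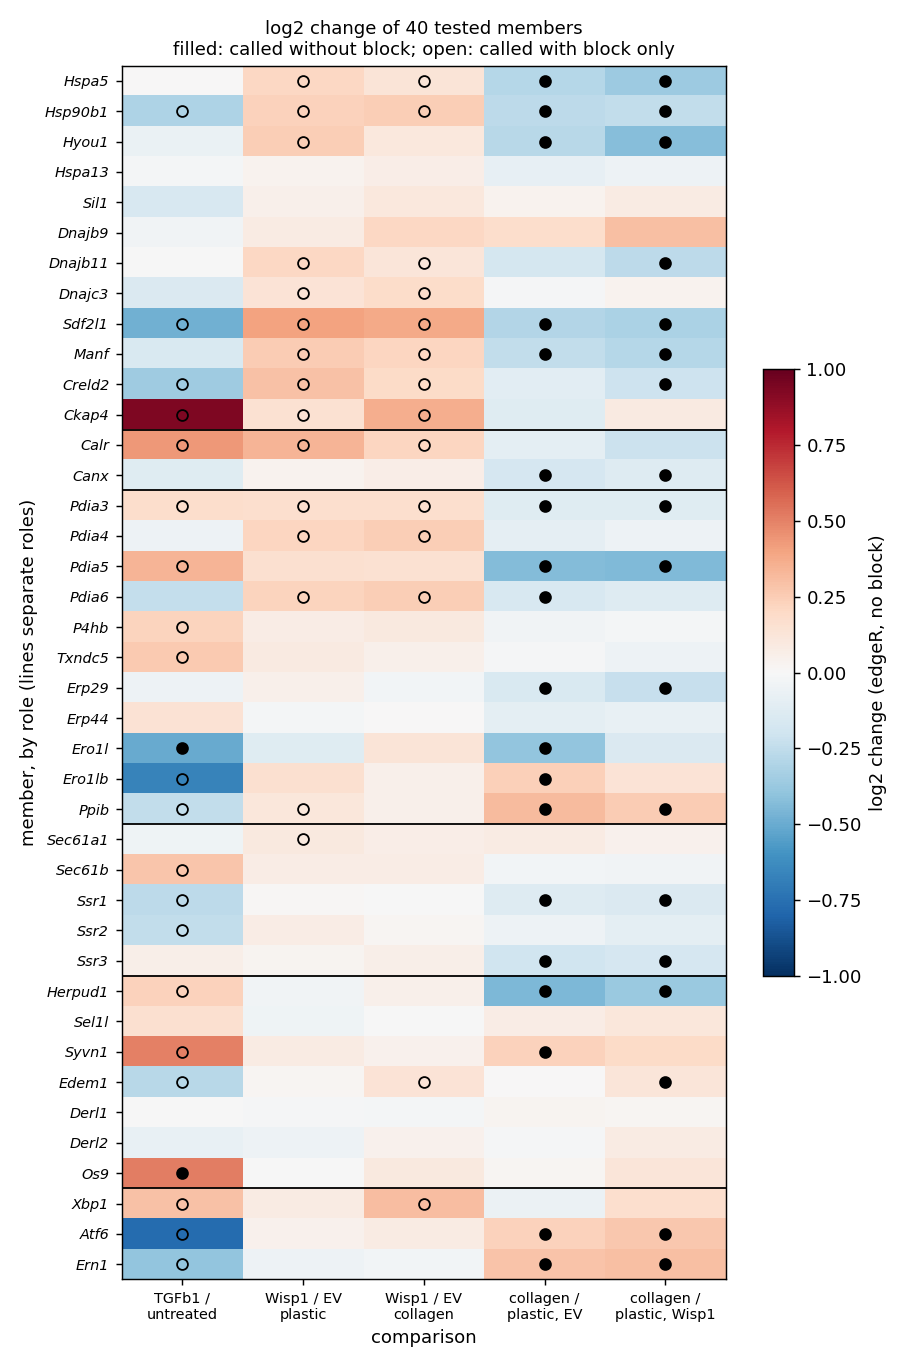
Log2 change of the 40 tested members (rows, by role) in 5 comparisons (columns), red for higher and blue for lower; filled circles mark calls in the fit without a block, and open circles in the first 3 columns mark calls made only with the replicate block. The Wisp1 columns hold 15 and 14 open circles, all on red cells, and the collagen columns hold 19 and 18 filled circles.

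Hspa5 read 1694, 1733 and 1662 CPM in EV cells on collagen, below all 3 plastic libraries (1975 to 2243 CPM), and was 1.22-fold lower (log2 change -0.28 ± 0.06 (SE), edgeR adjusted p = 0.0015). In the Wisp1 line it was 1.29-fold lower (-0.37 ± 0.06 (SE), edgeR adjusted p = 0.00022), again without overlap. Hsp90b1 was 1.20- and 1.18-fold lower (edgeR adjusted p = 0.00089 and 0.0012). With the spread of all 18 libraries the adjusted p was 0.051 for Hspa5 and Hyou1 in EV, and 0.061 and 0.066 for Hsp90b1 in EV and Wisp1 cells. Hyou1 read 203, 189 and 232 CPM on plastic and 162, 173 and 176 CPM on collagen in EV cells (1.21-fold lower, edgeR adjusted p = 0.012; 0.055 without EV plastic replicate 3), and 245, 227 and 269.9 CPM and 184, 195 and 171 CPM in Wisp1 cells (1.34-fold lower, 0.00085). The substrates did not overlap in either line. Sdf2l1 and Manf were 1.23- and 1.18-fold lower in EV and 1.25- and 1.22-fold lower in Wisp1 cells (edgeR adjusted p = 0.016, 0.021, 0.0094 and 0.0076). In EV, the call of Sdf2l1 was lost without EV plastic replicate 2 (0.059) or EV collagen replicate 3 (0.061), and that of Manf without EV plastic replicates 1 or 3 (0.053 and 0.088) or EV collagen replicates 2 or 3 (0.062 and 0.072).

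Herpud1, whose promoter held ERSE-II, had the largest fall of the members in EV cells. It read 50.6, 68.1 and 55.9 CPM on plastic and 41.3, 42.4 and 43.5 CPM on collagen, and 52.6, 61.9 and 56.4 CPM and 43.8, 44.6 and 43.1 CPM in Wisp1 cells. All collagen libraries were below all plastic ones in each line, by 1.37-fold in EV (log2 change -0.45 ± 0.08 (SE), edgeR adjusted p = 0.00069) and 1.29-fold in Wisp1 cells (-0.37 ± 0.08 (SE), edgeR adjusted p = 0.0027). Syvn1 went up in EV (1.18-fold, edgeR adjusted p = 0.033), a call lost without any 1 library of the 6 but EV plastic replicate 3 (0.054 to 0.15), and Edem1 in the Wisp1 line (1.09-fold, edgeR adjusted p = 0.035), lost without Wisp1 replicates 1 or 2 of either substrate (0.077 to 0.11).

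Among the isomerases, Pdia5 read 21.6, 21.9 and 23.1 CPM on plastic and 14.9, 17.1 and 17.2 CPM on collagen in EV cells, and 24.8, 24.7 and 24.9 CPM and 17.6, 19.7 and 17.4 CPM in Wisp1 cells. It was 1.35- and 1.36-fold lower with no overlap (log2 change -0.43 ± 0.07 (SE) and -0.44 ± 0.07 (SE), edgeR adjusted p = 0.00021 and 0.00017); over all 18 libraries these values were 0.36 and 0.32. Ppib went the other way, from 362, 356 and 383 CPM on plastic to 466, 459 and 443 CPM on collagen in EV cells and from 391, 379 and 422 CPM to 499, 475 and 442 CPM in Wisp1 cells. It was 1.25- and 1.19-fold higher, apart in both lines (edgeR adjusted p = 0.00030 and 0.0014; 0.067 in Wisp1 cells with the spread of all 18 libraries). Erp29, an isomerase relative without the active site, read 140.2, 142 and 139 CPM on plastic and 122, 126 and 129 CPM on collagen in EV cells, and 144, 143 and 148 CPM and 126, 129 and 114 CPM in Wisp1 cells. It was 1.11- and 1.17-fold lower (edgeR adjusted p = 0.0099 and 0.00063). Of its annotated exon bases, over all its transcripts, 26.38% overlap exons of genes on the opposite strand. Ero1l fell in EV, from 149, 174 and 129 CPM to 123, 109 and 109.8 CPM (1.32-fold lower, edgeR adjusted p = 0.011), and in the Wisp1 line had a log2 change of -0.15 ± 0.11 (SE) (edgeR adjusted p = 0.29). Ero1lb rose in EV (1.18-fold, edgeR adjusted p = 0.029), a call lost without replicates 1 or 2 of either substrate (0.052 to 0.12).

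Pdia3 was 1.09- and 1.09-fold lower in EV and Wisp1 cells and Pdia6 1.12-fold lower in EV (edgeR adjusted p = 0.045, 0.037 and 0.040). In EV both lost the call without any 1 of the 6 libraries but EV plastic replicate 2 (0.072 to 0.18 for Pdia3 and 0.065 to 0.15 for Pdia6), and in Wisp1 cells Pdia3 lost it without Wisp1 plastic replicates 1 or 3 or Wisp1 collagen replicates 1 or 3 (0.084 to 0.12). Canx read 838, 826 and 882 CPM on plastic and 744, 754 and 763 CPM on collagen in EV cells, and 861, 843 and 902 CPM and 782, 789.7 and 795 CPM in Wisp1 cells, and Ssr3 632, 623 and 657 CPM and 558, 543 and 561 CPM in EV and 646, 637 and 668 CPM and 593, 556 and 579 CPM in Wisp1 cells. Canx, Ssr1 and Ssr3 were lower on collagen in both lines, by 1.09- to 1.15-fold. In EV the call of Ssr1 was lost without replicates 1 of either substrate, EV plastic replicate 3 or EV collagen replicate 2 (0.070 to 0.082), and in Wisp1 cells that of Canx without Wisp1 plastic replicate 3 (0.069). Dnajb11 and Creld2 fell in the Wisp1 line (1.20- and 1.15-fold lower, edgeR adjusted p = 0.0068 and 0.022), and Creld2 lost the call without Wisp1 plastic replicates 1 or 3 or Wisp1 collagen replicate 3 (0.064 to 0.083).

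Atf6 read 119, 136 and 129.9 CPM on plastic and 143, 153 and 155 CPM on collagen in EV cells, and 128, 133 and 135 CPM and 152, 161 and 163 CPM in Wisp1 cells. It rose in both lines without overlap, 1.17-fold (log2 change 0.23 ± 0.05 (SE), edgeR adjusted p = 0.0018) and 1.21-fold (0.27 ± 0.05 (SE), edgeR adjusted p = 0.00055); over all 18 libraries these values were 0.68 and 0.58. Ern1 read 46.8, 46.5 and 47.5 CPM and 57.8, 58.4 and 54.5 CPM in EV cells, and 44.8, 42.5 and 48.7 CPM and 60.4, 54.3 and 52.2 CPM in Wisp1 cells. It rose 1.22- and 1.23-fold, also without overlap (edgeR adjusted p = 0.0017 and 0.0011; 0.14 and 0.097 over all 18). Xbp1 did not pass in either line (log2 change -0.05 ± 0.09 (SE) in EV and 0.17 ± 0.09 (SE) in Wisp1 cells, edgeR adjusted p = 0.66 and 0.15).

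The difference between the 2 lines in their response to collagen was tested directly as an interaction. By edgeR's quasi-likelihood test no member passed without a block (0% of all 13953 genes did) or with it (0.502% of all genes did), DESeq2 called 0, and 1 member, Ckap4, had an unadjusted p under 0.05 without the block. The lowest adjusted p of a member with the block was also that of Ckap4, at 0.069 (log2 difference 0.22 ± 0.05 (SE) between the Wisp1 and EV lines), for which Wisp1 exceeded EV by more on collagen than on plastic. Over the members the interaction ran from -0.14 for Hyou1 to 0.25 for Ero1l.

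The wider pathway was followed in lists of other genes, chosen with earlier results of these data known. The counts stand against the shares of all genes called: with TGFb1 6.14% higher and 4.92% lower without the block and 22.4% and 22.5% with it, and on collagen 19.2% and 17.3% in EV and 21.3% and 19.1% in Wisp1 cells. Of 14 genes of the PERK, ATF4 and CHOP branch, which slows translation and rebuilds amino acid supply, 4 rose and 1 fell with TGFb1 (7 and 1 with the block). Ddit4, a stress-induced brake on growth signalling, rose 4.57-fold, from a mean of 74.97 to 339 CPM (log2 change 2.19 ± 0.15 (SE), edgeR adjusted p = 0.0014). Eif2ak3, the gene of PERK, rose 1.98-fold, from 29.7 to 58.3 CPM (edgeR adjusted p = 0.014), whereas Atf6 and Ern1, the other sensors, were lower with the block. On collagen 0 of the 14 rose and 11 fell in EV cells (median log2 change -0.73), and 1 rose and 7 fell in Wisp1 cells (median -0.42). Atf3 fell from 13.5 to 5.33 CPM in EV and from 11.9 to 5.1 CPM in Wisp1 cells (edgeR adjusted p = 2.9e-06 and 9.7e-06). Atf4, the factor of this branch, was 1.34- and 1.37-fold lower, and its target Asns, asparagine synthetase, 1.63- and 1.54-fold. Between the Wisp1 and EV lines none of the 14 passed without the block, and with it 1 was lower on plastic (Slc7a11, 1.16-fold, edgeR adjusted p = 0.011) and 1 higher on collagen (Vldlr, 1.43-fold, 0.0092), with list medians of -0.20 and 0.06 without the block. Vldlr also passed the interaction with the block (edgeR adjusted p = 0.018).

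Retrieval and export genes (KDEL receptors and the COPII and COPI coats, 22 genes) gave 5 rises and no fall with TGFb1, and 10 rises and 1 fall with the block. Sec31a, a COPII coat subunit, rose 1.51-fold (251 to 374 CPM, edgeR adjusted p = 0.011), and Kdelr3, a receptor that returns ER proteins from the Golgi, 2.08-fold (30.4 to 62.98 CPM, edgeR adjusted p = 0.045). In the list of other disulfide isomerase, FKBP and redox genes (23 of 26 tested), 2 rose with TGFb1, Fkbp7 (2.72-fold, edgeR adjusted p = 0.014) and Fkbp14 (2.09-fold, 0.041), both proline isomerases of the ER, and with the block 6 rose and 8 fell. Of 17 glycosylation and quality control genes 2 fell, Uggt1 (1.49-fold lower, edgeR adjusted p = 0.011), the folding sensor that returns glycoproteins to calnexin and calreticulin, and Mogs (1.45-fold lower, 0.039). Of 19 genes for ATF6 processing and ERAD extraction, 1 fell with TGFb1, Erlin1 (1.80-fold lower, edgeR adjusted p = 0.0055), and with the block 6 rose and 3 fell. Without the block none of 19 other translocon, signal peptidase and signal recognition genes passed, and with it 2 rose and 3 fell. Of 18 cytosolic and mitochondrial heat shock genes, listed as a contrast, 1 rose without the block, and 2 rose and 7 fell with it.

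Between the Wisp1 and EV lines, the fits with the block called 2.08% of all genes higher and 1.08% lower on plastic, and 1.63% and 0.939% on collagen. In the retrieval and export list 2 of 22 were higher on plastic (Lman2 and Lman1, cargo receptors, 1.10- and 1.10-fold) and 2 on collagen. In the glycosylation list 2 of 17 were higher on plastic, among them Rpn1 of the oligosaccharyltransferase (1.09-fold, edgeR adjusted p = 0.030), and 1 on collagen, and none of the 19 ATF6 processing or 19 translocon genes passed on either substrate. In the list of other disulfide isomerase, FKBP and redox genes 1 was higher and 1 lower on plastic, and 1 was higher on collagen (Txndc11, 1.14-fold). Of the 18 heat shock genes, 1 was higher on plastic (Hsf1, 1.12-fold) and 1 lower on collagen (Hsp90aa1, 1.09-fold lower).

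Of the 18 heat shock genes, 3 rose and 9 fell on collagen in EV and 4 rose and 11 fell in Wisp1 cells (medians -0.16 and -0.23), against the 19.2% and 17.3% (EV) and 21.3% and 19.1% (Wisp1) of all genes called higher and lower. Hspd1, a mitochondrial chaperonin kept in that list, fell from 1742 to 1211 CPM in EV and from 1801 to 1169 CPM in Wisp1 cells (edgeR adjusted p = 5.5e-05 and 1.3e-05). The translocon and signal peptidase list had 2 rises and 6 falls in EV and 2 and 8 in Wisp1 cells, with Sec11c, a signal peptidase subunit, 1.35- and 1.31-fold higher. Retrieval and export genes gave 2 rises and 7 falls in EV and 3 and 7 in Wisp1 cells, and other isomerase, FKBP and redox genes 1 and 6 in EV and 3 and 3 in Wisp1 cells. The ATF6 processing list had 4 rises in each line, with 3 falls in EV and 2 in Wisp1 cells. Of the glycosylation list 1 rose and 2 fell in EV and 2 rose and 2 fell in Wisp1 cells, with Uggt1 1.18- and 1.19-fold higher.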

How the data were processed

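Poly(A) RNA libraries were made with a stranded mRNA kit, per the labels' protocols. The authors deposited, for each library, whole-number read counts by gene symbol with unequal totals, that is, without normalization. Tools named in the submitters' processing notes are HTSeq, STAR, BWA, CASAVA, limma and R 3.2.4, and the build is mm9. What each tool did, and which annotation and strand option the counting used, is not given in the sources used here. The 5 summary entries of each library (reads outside genes, ambiguous or not aligned among them) were left out.

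Counts were fitted with edgeR 4.0.16 in R 4.3.3 (default expression filter, TMM, quasi-likelihood F tests with robust dispersions, Benjamini-Hochberg over all genes of a comparison). The 6 parental libraries formed one fit (14874 genes) and the 12 stable-line libraries another with 4 group means (13953 genes). DESeq2 1.42.0, RLE scaling, other filters, other sets of libraries and leaving out each library were alternatives. CPM are TMM-scaled over all 18 libraries, and levels per kilobase use the longest principal transcript in GENCODE M21. Standard errors were derived from each log2 change and its F statistic.

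The fits were checked on counts simulated with a replicate effect, for TGFb1, Wisp1 on each substrate and collagen in EV cells. Without a block they kept to their threshold, and with a block they exceeded it, most for TGFb1. The simulated replicate effect adds spread to a fit without a block, so the check cannot show how that fit does when there is none. Collagen in Wisp1 cells, the interaction and the average over substrates were not simulated. Whether equal numbers pair libraries was judged from the correlation of their deviations from the group mean, with a minimum of 0.1. The parental libraries share codes in their titles and correlated at 0.79, 0.55 and 0.78. EV and Wisp1 libraries share only a number and gave 0.12, 0.21 and 0.22 (plastic) and 0.47, 0.15 and 0.34 (collagen; 0.079 for collagen pair 2 with the gene filter of all 18 libraries). Plastic and collagen libraries did not pass in every pair (0.12, -0.13 and 0.29 in EV; -0.03, -0.07 and -0.01 in Wisp1), so no block is used there. The labels do not say that replicates were separate cultures, and p-values then measure only the spread between these samples. Replicates differed by more than counting error (chi-squared over its degrees of freedom 3.25 to 213).

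The members and lists were chosen with earlier results of these data known. Values per library are given for up to 4 called members of each role group per comparison, by adjusted p, and for Hspa5, Hsp90b1, Calr, Xbp1, Atf6 and Ern1, and up to 3 called genes of each other list are named.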

Additional observations from a re-analysis of the deposited data

How the results depend on the processing

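No called member reversed its direction under the alternatives run for it. With TGFb1, the 2 called members became 5 with DESeq2, 1 with no filter on low counts and 15 in a fit of all 18 libraries. They became 22 with the replicate block, and 0 to 1 when a library was left out. The calls over all genes were then 380 to 1430. Of all 14874 genes, 1645 were called in the main fit, 2910 with DESeq2 and 6672 with the block. In the fit of all 18 libraries 4865 of 15032 genes were called, and with no filter 1552 of 22764. The 22 were 14 without pair 2, and 14 to 21 with 1 pair left out. Between the Wisp1 and EV lines, the count of 0 became 3 (plastic) and 5 (collagen) with DESeq2, 5 on collagen with no filter, and 15 and 14 with the replicate block. Of all 13953 genes, DESeq2 called 18 and 40 and the block 440 and 358. With no filter 32 of 21917 genes were called on collagen. When a library was left out the count of members was 0 to 1 on collagen (1 without Wisp1 collagen replicate 3), and that of all genes 5 to 11. With 1 pair left out the blocked counts were 11 to 13 on plastic and 10 to 13 on collagen, and DESeq2 with the block gave 13 and 11. Averaged over substrates, the 5 calls ranged from 1 to 7 with 1 library left out. Calls over all genes are not given here for fits with 1 pair left out, for DESeq2 with the block or for this average. Member counts in those settings cannot be set against them. For collagen against plastic, the 19 calls in EV and 18 in Wisp1 cells were 20 and 22 with the replicate block. They were 5 and 5 in a fit of all 18 libraries, where the parental libraries enter the estimate of the spread. That fit called 1629 and 2071 of all 15032 genes, the main fit 5095 and 5641 of 13953, and the block 5690 and 6238. With no filter on low counts the calls of Os9 with TGFb1 (edgeR adjusted p = 0.052), Pdia3 on collagen in EV (0.080) and Wisp1 cells (0.062), Ssr1 in EV (0.053) and Edem1 in Wisp1 cells (0.070) were lost. DESeq2 with the block lost Ckap4 (0.16) and Sec61a1 (0.060) on plastic and Creld2 (0.057), Dnajb11 (0.18) and Edem1 (0.063) on collagen. Only changes above the spread of 3 libraries can be called, and most members moved by less than 1.5-fold.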

Other observations

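Parental and stable-line cells were not compared by a test, because they come from separate sets of libraries and treatment protocols and these cannot be told apart from the vector. Hspa13, Pdia6, Derl1 and Os9 were higher in all untreated parental libraries than in any EV library on plastic. How many of all genes did not overlap was not counted, so this is not shown to be a trait of the members. The members named here were picked after their values were seen. Xbp1 read 132 to 183 CPM in untreated cells and 60.2 to 75.5 CPM in EV cells. Dnajb9, a BiP co-chaperone that restrains IRE1, read 26.2 to 41.5 and 9.61 to 11.99 CPM, and Syvn1 56.3 to 77.2 and 34.5 to 41.4 CPM. In the opposite order, Sel1l, the scaffold of the Syvn1 ligase, read 72.2 to 83.2 CPM in untreated and 96.9 to 104 CPM in EV cells. Hspa5 overlapped between these groups, at 1963 to 2340.2 and 1975 to 2243 CPM.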
